A study of Mus musculus with 6 samples.

Results

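The genes described here are 36 members of the p53 pathway and of the apoptosis machinery. They were chosen by name, with the condition that the mean over the 6 hearts was at least 10, and all 36 of the genes named met it, out of 45706 genes in the table. Poly(A) RNA of mouse embryonic hearts, strain C57BL6/J, was sequenced, with 3 hearts in each group. Both groups carried loxP-flanked (flox/flox) alleles of RBPMS and RBPMS2, a pair of RNA-binding proteins. The littermate controls carried no Cre label. The knockouts were also positive for aMyHC Cre, a recombinase whose promoter, that of alpha-myosin heavy chain, drives it in cardiomyocytes, so that other heart cells keep both genes. All 3 knockouts and no control have the Cre label, and the transgene and the deletion therefore cannot be told apart. Neither the embryonic day nor the litter of each heart is given in the labels, nor whether hearts were pooled. P-values accordingly measure only the spread between these samples.

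The protein p53, encoded by Trp53, is a transcription factor that DNA damage and other stresses stabilise. In unstressed cells MDM2 and MDM4 hold it down, MDM2 by marking it for degradation, and p53 in turn activates the Mdm2 gene. Its targets include Cdkn1a, which encodes the cell cycle inhibitor p21, other genes of arrest and repair, and genes of cell death. Death through mitochondria is set by the BCL2 family: guardians such as BCL2 keep the effectors BAX and BAK1 in check, BH3-only proteins counter the guardians, and released cytochrome c then acts through APAF1 and caspase 9. Cdkn1a is not among the 36 genes but rose in the knockouts, and the question here was which other p53 and apoptosis genes moved beside it.

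Each value is a number of reads that the authors scaled by sample and then rounded. Where no group is named, the controls (replicates 1 to 3) come before the knockouts (1 to 3). Totals were 17861435 to 18439201 per heart, and the spacing of low values gave estimated depths of 12959343 to 25837261 reads, lowest in control replicate 3. The targeted genes went with the labels: Rbpms was at 3868 to 7656 in the controls and 852 to 1134 in the knockouts, and Rbpms2 at 1362 to 1998 and 879 to 1003. Control replicate 2 held the lowest control value of both. Heart muscle markers such as Tnnt2 (128773 to 162556) were abundant in all 6 hearts. Over all genes tested, 8.61% rose and 8.56% fell. Among markers of other cell types, 6 of 8 macrophage genes rose, with summed values of 1448 to 1665 in controls and 2086 to 3077 in knockouts. Of 10 endothelial and endocardial genes 6 rose (sums of 20858 to 21537 and 24518 to 27022), of 7 fibroblast genes 3 (90708 to 105485 and 118035 to 147863) and of 7 epicardial genes 1 (3653 to 4022 and 4292 to 4987). Of 10 cardiomyocyte genes 0 rose and 1, Actc1, fell (sums of 912427 to 948968 and 772241 to 859217). Actc1 alone, at 273411 to 288236 and 192214 to 236077, made up a large part of these sums. The median log2 change of the 10 was -0.16, with 2 positive and 8 negative. None of these listed genes was at 0 in every heart. Of 8 erythroid genes none passed limma's test in either direction, against 6 at an unadjusted p under 0.05, and their sums were 37957 to 66152 and 30569 to 37882. Of 4 neural crest and Schwann genes, 2 were abundant enough to test and neither passed (sums of 215 to 304 and 216 to 284). In bulk tissue, fewer cells of a type and less RNA per cell cannot be told apart, and the part of these markers in the results below was not tested.

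The DNA that p53 binds is shown first, because many of these genes are known targets of p53. A p53 site consists of paired copies of a decamer, the p53 decamer consensus, which reads the same on both strands. RefSeq promoter windows (build GRCm38.p6, which matches mm10) of 250 bases before and 50 after each annotated start were found for 31 of the 36 genes, 44 windows in all. Those without one were Perp, Pmaip1, Tnfrsf10b, Trp53inp1 and Zmat3. A perfect decamer stood in 10 of the 44 windows (22.7%), against 8.36% of the 32851 windows of all genes. For Aen, 2 overlapping windows hold the same decamer and count separately. A close pair, with at most 1 mismatch and at most 13 bases between the decamers, stood in 3 of the 44 (6.82%), against 1.09% of all windows. Those 3 belong to Bax, Ccng1 and Polk. The lines below show the decamers in capitals, for Cdkn1a, for the 3 members with a close pair and for Mdm2, the only one of the 6 genes that rose and had a window to hold a decamer there. Where several pairs qualified the closest is in capitals, and a second perfect decamer of Cdkn1a, near the left end of its line, stays in lower case.
Cdkn1a: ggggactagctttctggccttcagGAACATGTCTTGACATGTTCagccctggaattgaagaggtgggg
Ccng1: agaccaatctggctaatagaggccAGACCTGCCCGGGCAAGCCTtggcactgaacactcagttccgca
Bax: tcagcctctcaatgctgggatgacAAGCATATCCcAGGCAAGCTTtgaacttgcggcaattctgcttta
Polk: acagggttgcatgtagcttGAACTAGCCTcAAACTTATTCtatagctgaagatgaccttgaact
Mdm2: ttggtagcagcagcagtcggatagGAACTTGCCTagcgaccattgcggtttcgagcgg
The Cdkn1a stretch is chr17:29090904-29090971 on the plus strand, before the more upstream of its annotated starts. The Ccng1 stretch is chr11:40755438-40755505 and the Bax stretch chr7:45467066-45467134, both on the minus strand. The Polk stretch, chr13:96519374-96519437 on the minus strand, belongs to an alternative start. The Mdm2 stretch is chr10:117710911-117710968 on the minus strand. The known p53 sites of Mdm2 lie in its first intron, outside this window. Of the 8 windows of these 6 genes, 3 of them from Bcl2l1, 1 held a decamer. Of the 32 windows of 22 members that did not pass the test 9 did, both of Aen included. The 4 windows of the 3 genes that fell held 0. A match is a description of the letters and not of binding, and sites elsewhere in these genes are not covered.

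A minority of the 36 genes moved, mostly upwards. In limma, fitted on log2(value + 1) over 15556 genes with the Benjamini-Hochberg adjustment and a threshold of 0.05, 8 members rose (22.2%), against 8.61% of all genes tested, and 3 fell (8.33%), against 8.56%. The 8 were Eda2r, Zmat3, Ddit4, Trp53inp1, Phlda3, Bcl2, Bcl2l1 and Mdm2, and the 3 were Gadd45g, Bcl2l11 and Gadd45b. The share that fell was thus near the background. Without control replicate 2 or 3, or knockout replicate 2 or 3, 1 member fell, and without knockout replicate 2 the count that rose was 6. Calls over all genes dropped in these fits too. With every heart 1339 genes rose and 1331 fell, and without knockout replicate 2 these counts were 614 and 691. The median log2 change of the members was 0.11 (0.20 without control replicate 2), beside 0.00 for all genes tested, and the median size of change, whatever its sign, was 0.20 beside 0.18. All 3 knockouts lay above all 3 controls in 14 members and below them in 4, where 17.5% and 17.9% of all genes did. Cdkn1a (ENSMUSG00000023067; mm10 chr17:29090976-29100727, plus strand) measured 628, 866 and 719 in the control hearts, against 1842, 1680 and 1955 after the knockout. Its log2 change was 1.32 (SE 0.11, limma adjusted p = 0.000325), larger than that of every member. As log2 differences from the control mean, the median over the 36 genes was -0.07, 0.04 and -0.01 for control hearts, against 0.19, 0.13 and 0.13 for the knockouts. The groups did not overlap in this median. It was not taken over all genes for comparison, and the 36 genes were chosen with earlier results of these data known.

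**Figure D1:**
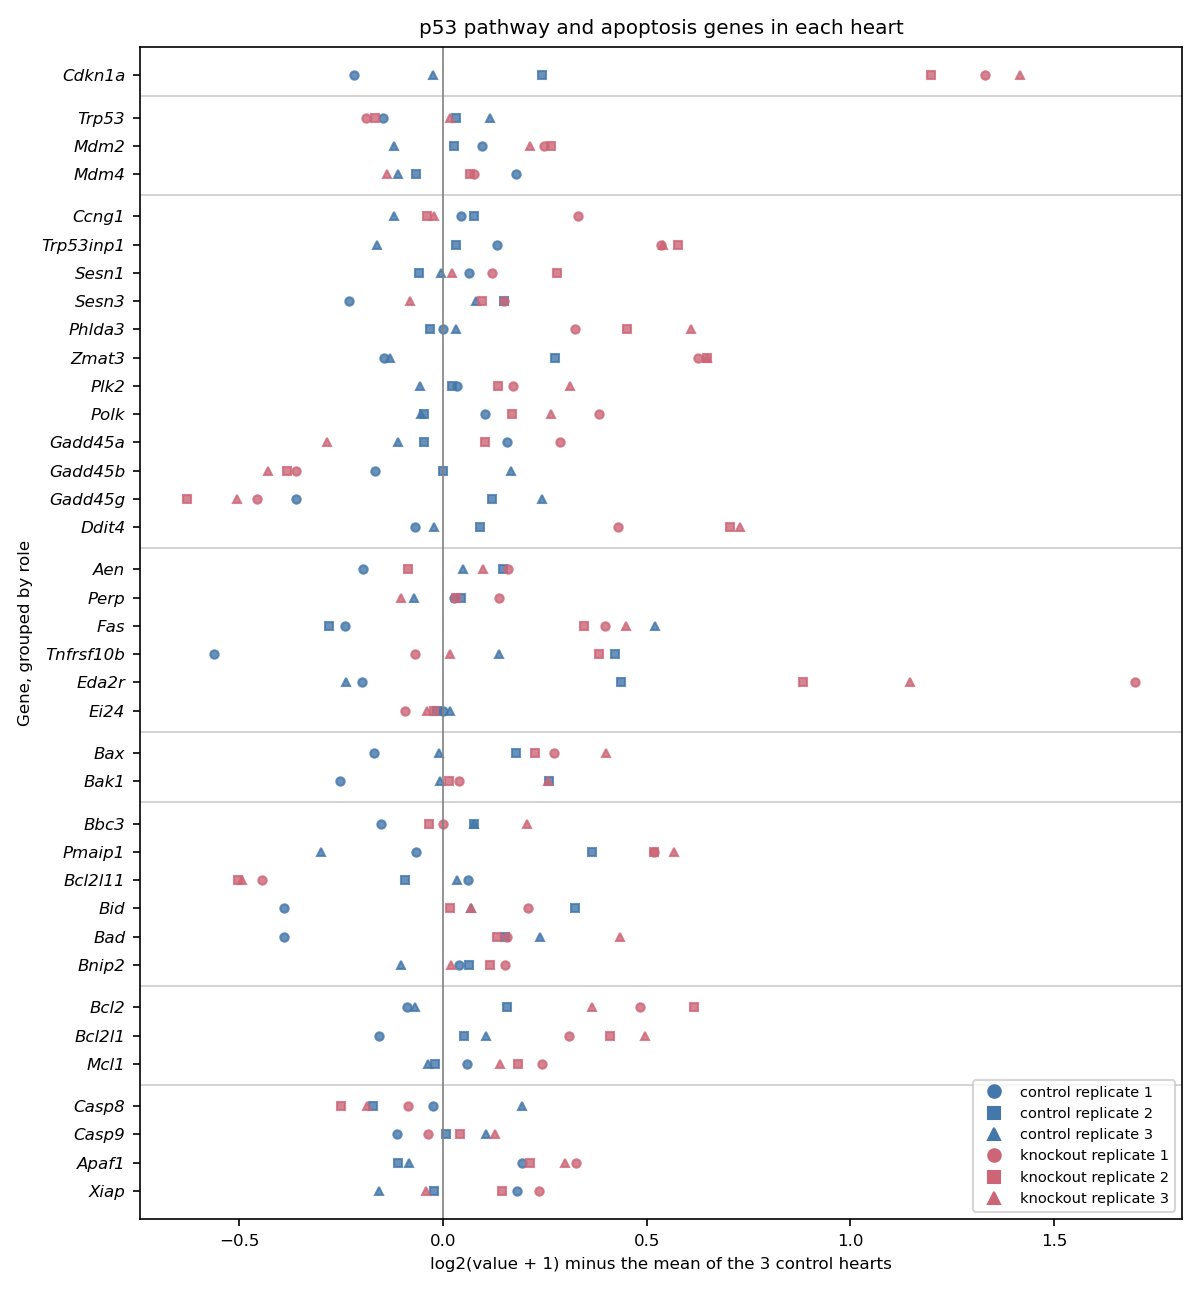
Values of Cdkn1a (top) and the 36 genes, grouped by role, as log2(value + 1) minus the mean of the 3 controls (x axis); each point is 1 heart, with blue for controls, red for knockouts and the shape for the replicate number. Cdkn1a and Eda2r stand furthest to the right, Bcl2l11, Gadd45b and Gadd45g lie to the left of their controls, and 14 of the 36 genes have all knockouts to the right of all controls.

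**Figure D2:**
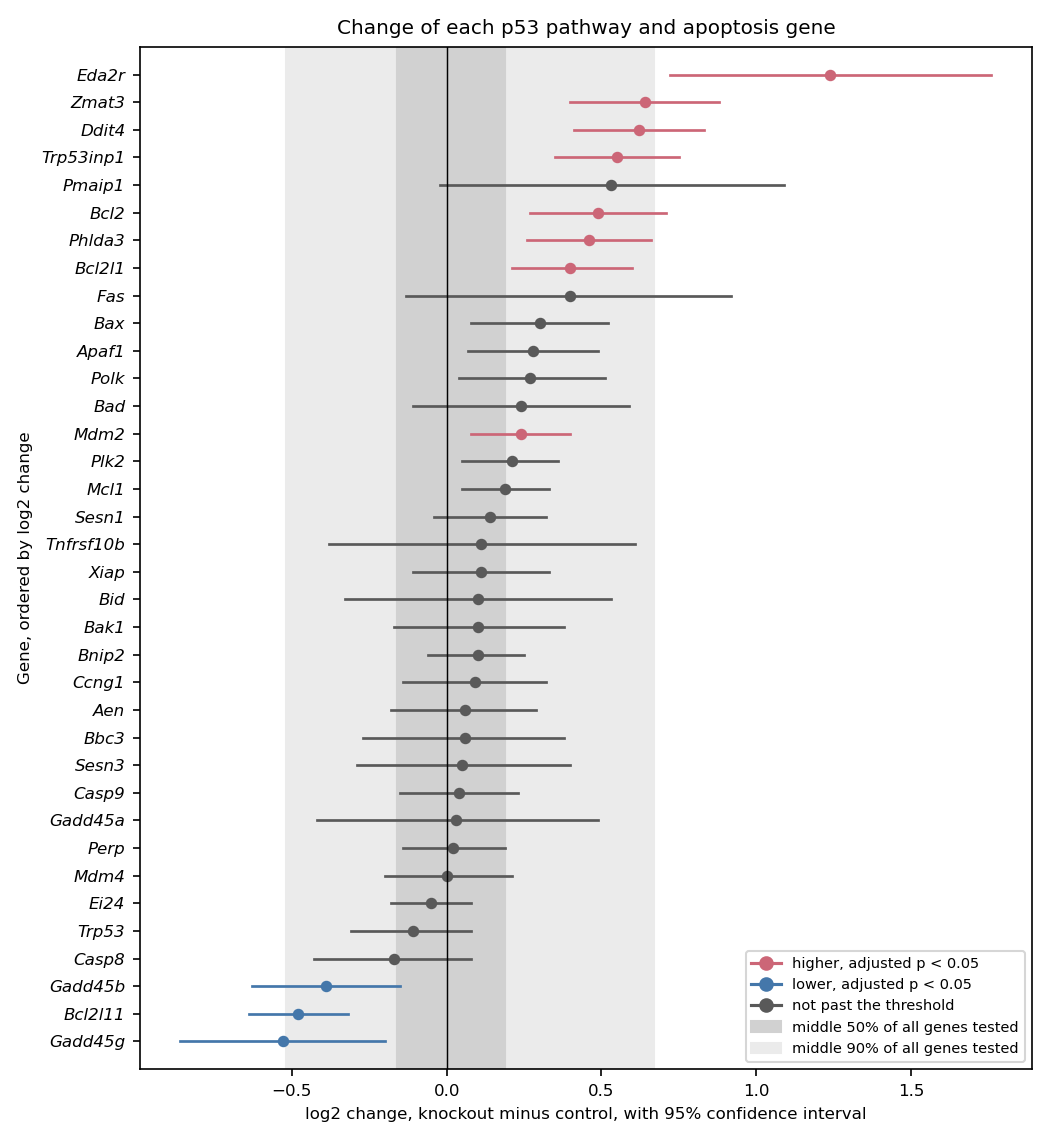
Log2 change of each of the 36 genes (x axis, knockout minus control) with its 95% confidence interval, ordered by size; red and blue mark genes past an adjusted p of 0.05 and the grey bands hold the middle 50% (-0.16 to 0.19) and 90% (-0.52 to 0.67) of all 15556 genes tested. Eda2r, at 1.24, is the member beyond the upper end of the wide band, and Gadd45g, at -0.53, lies at its lower end.

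The gene for p53 itself was not called, and of its MDM inhibitors Mdm2 rose. Trp53 (ENSMUSG00000059552; mm10 chr11:69580359-69591873, plus strand) measured 1196, 1354 and 1433 in the control hearts, and 1161, 1178 and 1339 after the knockout, with overlapping groups. Its log2 change was -0.11 with a 95% confidence interval of -0.31 to 0.08 (limma adjusted p = 0.417). Mdm2 (ENSMUSG00000020184; chr10:117688875-117710758, minus strand) had control values of 1329, 1267 and 1145, against 1479, 1495 and 1442 in the knockouts. Every knockout lay above every control, by 0.24 (log2, SE 0.07; limma adjusted p = 0.0465), a rise of 1.18-fold. This was the call nearest the threshold: without control replicate 2 or 3 or any of the 3 knockouts in turn its adjusted p was 0.0844 to 0.159. Mdm4 was at 2231 to 2726 in the controls and 2190 to 2541 in the knockouts, with an interval of -0.20 to 0.21. Per kilobase of exon, Cdkn1a stood at 0.60, 0.73 and 0.57 times Trp53 in the controls and at 1.81, 1.62 and 1.66 times in the knockouts. Against Mdm2 the ratio went from 0.68, 0.98 and 0.90 to 1.78, 1.61 and 1.94. Both ratios are taken within a heart and do not depend on the scaling between hearts. Cdkn1a differed far more between the groups than Trp53 or Mdm2 varied over all hearts. Neither ratio could therefore overlap between the groups, and the ratios add no separate result.

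Of the 12 targets of arrest, repair and stress, 4 rose (33.3%) and 2 fell (16.7%), beside 8.61% and 8.56% of all genes tested. Zmat3, an RNA-binding zinc finger protein that p53 induces (ENSMUSG00000027663; chr3:32334792-32366014, minus strand), measured 620, 831 and 627 in the control hearts, and 1060, 1075 and 1075 after the knockout. The knockouts lay close together and above all controls, of which replicate 2 was the highest, and the log2 change was 0.64 (SE 0.11, limma adjusted p = 0.00405). Ddit4, an inhibitor of the growth kinase mTORC1 that hypoxia and glucocorticoids induce as well as p53 (ENSMUSG00000020108; chr10:59949669-59951834, minus strand), was at 717, 802 and 741 and at 1013, 1227 and 1247. Its controls were close together and the log2 change was 0.62 (SE 0.09, limma adjusted p = 0.0023). Trp53inp1, a stress protein of autophagy and cell death (ENSMUSG00000028211; chr4:11156431-11174379, plus strand), was at 583, 544 and 475 and at 772, 794 and 774, a change of 0.55 (SE 0.09, limma adjusted p = 0.00313). Phlda3, a p53 target that restrains AKT signalling (ENSMUSG00000041801; chr1:135766119-135769136, plus strand), was at 527, 516 and 539 and at 660, 721 and 804, a change of 0.46 (SE 0.09, limma adjusted p = 0.00682). The groups did not overlap in Trp53inp1 or Phlda3, and knockout replicate 1 was the lowest knockout for Ddit4, Zmat3, Trp53inp1 and Phlda3 alike. All 4 calls held without each heart in turn.

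The GADD45 genes, which encode small stress sensors that bind kinases and the replication clamp PCNA, gave 2 falls and 1 gene that did not pass. Gadd45b (ENSMUSG00000015312; chr10:80930073-80932204, plus strand) had control values of 286, 321 and 361, against 250, 246 and 238 in the knockouts, and it fell by 0.39 (log2, SE 0.11; limma adjusted p = 0.0339). Gadd45g (ENSMUSG00000021453; chr13:51846678-51848468, plus strand) was at 314, 439 and 478 and at 294, 261 and 284, and fell by 0.53 (SE 0.15, limma adjusted p = 0.0339). The groups did not overlap in either gene, and control replicate 1 was the control nearest to the knockouts. Neither fall held without control replicate 2 or 3 or knockout replicate 2 or 3, with adjusted p = 0.0683 to 0.12, and Gadd45b did not pass without knockout replicate 1 either (adjusted p = 0.06). Gadd45a, the member of the trio that p53 activates directly, was low, at 52, 45 and 43 and at 57, 50 and 38, with an interval of -0.42 to 0.49. It shares 337 exon bases with E230016M11Rik on the opposite strand, which was itself at 29, 30 and 40 and at 42, 47 and 34, and whether counting used strand is not given, so this value is less certain.

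The other targets of arrest and repair did not pass. Ccng1, cyclin G1, a p53 target that recruits a phosphatase to MDM2, had the highest value per kilobase of exon among these 12 targets, with a median of 2090. It measured 7521, 7688 and 6700 in the control hearts, and 9175, 7091 and 7176 after the knockout, so that knockout replicate 1 alone lay above the controls, and the interval was -0.14 to 0.32. Plk2, a polo-like kinase, was at 2585, 2562 and 2426 and at 2842, 2769 and 3132, a log2 change of 0.21 (limma adjusted p = 0.0645). Polk, a DNA polymerase that copies past damage, was at 232, 209 and 208 and at 282, 243 and 260 (limma adjusted p = 0.109). In Plk2 and Polk the groups did not overlap. The sestrin genes Sesn1 (1228 to 1337 and 1299 to 1552) and Sesn3 (82 to 107 and 91 to 107), which act against oxidative stress and mTORC1, overlapped between the groups.

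Among 6 targets of cell death and death receptors, 1 rose (16.7%, beside 8.61% of all genes tested). Eda2r, a receptor for ectodysplasin A2 that p53 induces (ENSMUSG00000034457; chrX:97333840-97377216, minus strand), had control values of 75, 117 and 73, against 282, 160 and 192 in the knockouts. Control replicate 2 was the highest control and knockout replicate 1 the highest knockout, and the groups did not overlap. The log2 change of 1.24 (SE 0.23, limma adjusted p = 0.00648), or 2.37-fold, had an interval of 0.72 to 1.76 and was the largest among the 36 genes. Eda2r was also the only member past the threshold in a test against a fold change of 1.2 (limma adjusted p = 0.0406). The gene is not abundant, at 12.4 to 47.9 per kilobase of exon.

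The other 5 death genes did not pass. Fas, the FAS death receptor, was at 35, 34 and 60 and at 55, 53 and 57, and control replicate 3 exceeded all knockouts. Tnfrsf10b, the TRAIL receptor of the mouse, was at 188, 373 and 306 and at 265, 363 and 281, with an interval of -0.38 to 0.61. Its controls spread more widely than its knockouts. Perp, a membrane protein of desmosomes and cell death and the most abundant member per kilobase of exon, was at 4973, 5033 and 4641 and at 5365, 4989 and 4544, with an interval of -0.14 to 0.19. Aen, a p53-induced nuclease, ranged from 526 to 668 and from 568 to 673. Ei24, a protein of the endoplasmic reticulum, ranged from 1863 to 1905 and from 1765 to 1856; the knockouts were all below the controls, but the log2 change was only -0.05 (limma adjusted p = 0.605).

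Among BCL2 family and related genes, 2 of 3 guardian genes rose (66.7%), and of 6 BH3-only and related genes 1 fell (16.7%). Over all genes tested 8.61% rose and 8.56% fell. Bcl2 (ENSMUSG00000057329; chr1:106538178-106714274, minus strand) measured 456, 540 and 462 in the control hearts, and 678, 743 and 625 after the knockout, which all lay above the controls. The log2 change was 0.49 (SE 0.10, limma adjusted p = 0.00854). Its exons overlap 558 bases of D630008O14Rik on the opposite strand, which is listed at 0 in all 6 hearts. Bcl2l1, which encodes BCL-XL (ENSMUSG00000007659; chr2:152780668-152831728, minus strand), was at 679, 785 and 814 and at 938, 1006 and 1067, a change of 0.40 (SE 0.09, limma adjusted p = 0.0127). The groups did not overlap, and without knockout replicate 2 its adjusted p was 0.0546. Mcl1, a short-lived guardian on which heart muscle depends, was at 3960, 3752 and 3706 and at 4505, 4324 and 4193. All knockouts were higher, by 0.19 (SE 0.06), but the call was missed at limma adjusted p = 0.0595; with values scaled to equal totals it was 0.0391, and without control replicate 1 it was 0.046. Per kilobase of exon Mcl1 was the most abundant guardian, with a median of 1190 against 191 for Bcl2l1 and 63.6 for Bcl2, and these ranges did not overlap.

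Bcl2l11, the BH3-only gene that encodes BIM (ENSMUSG00000027381; chr2:128126038-128162547, plus strand), had control values of 1204, 1081 and 1181, against 848, 814 and 819 in the knockouts. The knockouts lay close together and below every control, and the gene fell by 0.48 (log2, SE 0.07; limma adjusted p = 0.0022), a call that held without each heart in turn. FOXO factors and ERK signalling are among the known controls of BIM, and the cause of the fall of Bcl2l11 was not tested. The BH3-only genes that p53 activates directly were low and did not pass. Bbc3, which encodes PUMA, was at 81, 95 and 95 and at 90, 88 and 104, with overlapping groups and an interval of -0.27 to 0.38. Pmaip1, which encodes NOXA, was at 19, 26 and 16 and at 29, 29 and 30. Its knockouts were all above the controls, but at such values the interval ran from -0.02 to 1.09 (limma adjusted p = 0.172).

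Of the effectors, Bax (ENSMUSG00000003873; chr7:45461697-45466898, minus strand) measured 589, 750 and 657 in the control hearts, and 800, 775 and 874 after the knockout, with no overlap, a log2 change of 0.30 (SE 0.10) and limma adjusted p = 0.0622. It passed with equal totals (adjusted p = 0.0393), with quantile normalization (0.0492) and without control replicate 2 (0.0341), the control nearest to the knockouts. Bak1 was at 774, 1106 and 919 and at 948, 932 and 1103, with an interval of -0.17 to 0.38. The remaining BH3-only and related genes overlapped between the groups: Bid at 63 to 104 and 84 to 96, Bad at 364 to 563 and 523 to 645, and Bnip2 at 2111 to 2368 and 2297 to 2520. Bid shares 628 exon bases with Bcl2l13, Bad 524 with Gpr137 and Bak1 614 with Ggnbp1, each on the opposite strand. The sources used here do not say that counting used strand, so these values are less certain. Of the 1576 exon bases of Bax, 192 are shared with Gm45808 on the same strand.

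Ratios within a heart show the balance of these genes without the scaling. Per kilobase of exon, Bcl2l11 stood at 3.01, 2.28 and 2.92 times Bcl2 in the controls and at 1.43, 1.25 and 1.49 times in the knockouts. Against Bcl2l1 the ratio of Bcl2l11 went from 1.01, 0.79 and 0.83 to 0.52, 0.46 and 0.44. Bcl2l11 was lower, and Bcl2 and Bcl2l1 were higher, in every knockout than in every control. The ratios of Bcl2l11 therefore could not overlap between the groups and add no separate result. The ratio of Bax to Bcl2 overlapped between the groups, at 7.50, 8.07 and 8.26 and at 6.86, 6.06 and 8.13, as did that of Bax to Bcl2l1, at 2.35 to 2.78 and 2.24 to 2.48. An exact permutation test of 3 against 3 cannot give a p below 0.1, so no test was made of these ratios.

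**Figure D3:**
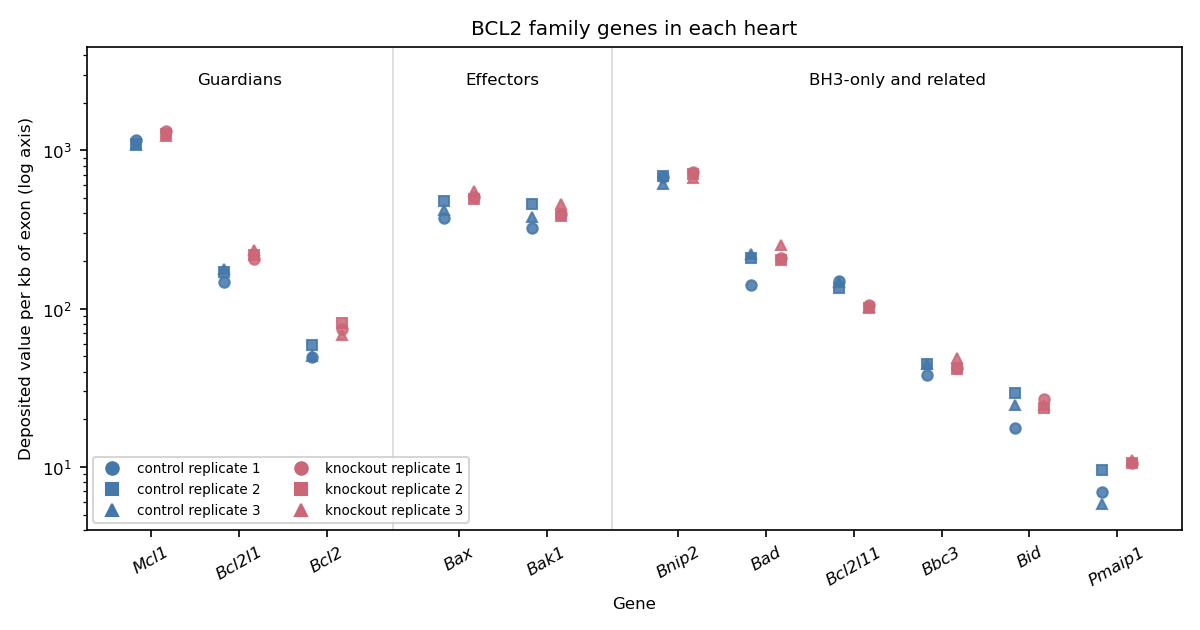
Deposited value per kilobase of exon (log axis) of 11 BCL2 family and related genes in each heart, blue for controls and red for knockouts, with shapes for the replicate number. Bcl2l1 and Bcl2 lie higher in the knockouts and Bcl2l11 lower, Mcl1, Bax and Pmaip1 lie above the controls without passing the test, and the other genes overlap.

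The caspase group gave no call in limma or limma-voom, against 1 gene at an unadjusted p under 0.05. That gene was Apaf1, the scaffold that activates caspase 9, at 704, 570 and 581 in control hearts, against 772, 714 and 757 in the knockouts. All knockouts were above the controls, by a log2 change of 0.28 (limma adjusted p = 0.0693); without control replicate 1, the highest control, the adjusted p was 0.0157. Casp9, the initiator caspase of the mitochondrial route, was at 624, 679 and 727 and at 658, 695 and 738, with an interval of -0.15 to 0.23. Casp8, the initiator caspase of death receptors, was at 329, 297 and 383 and at 315, 281 and 294, and Xiap, an inhibitor of caspases, at 2133, 1852 and 1687 and at 2217, 2080 and 1829. The groups overlapped in Casp8, Casp9 and Xiap.

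Genes of the same pathways outside the 36 were read from 3 further lists. Of 34 other p53 targets 8 rose (23.5%) and 2 fell (5.88%), with a median log2 change of 0.24. Over all genes tested 8.61% rose and 8.56% fell, so the share of this list that fell was below the background, and the median was 0.00. Of the exon bases of Cdkn1a, 273 overlap AC167363.2 on the opposite strand. Cdkn1a was followed by Ephx1, an epoxide hydrolase, at 129, 145 and 149 in control hearts, against 255, 299 and 299 in the knockouts, a change of 1.01 (SE 0.12). Xpc, a sensor of damaged DNA in nucleotide excision repair, was at 399, 419 and 394 and at 565, 652 and 659, and Btg2, an antiproliferative gene that growth signals also induce, at 830, 1074 and 925 and at 1396, 1266 and 1350. In Ephx1, Xpc and Btg2 the groups did not overlap (limma adjusted p = 0.000829, 0.00177 and 0.00628). The 2 that fell were Steap3, a metalloreductase of iron uptake, at 533, 617 and 686 and at 320, 312 and 435, and Tigar, a regulator of glycolysis, at 702, 681 and 804 and at 559, 456 and 431 (limma adjusted p = 0.00488 and 0.00593). Tigar shares 122 exon bases with Platr31 on the opposite strand. Without knockout replicate 3, the count of this list that rose was 5, and that of all genes was 876, against 1339 with every heart.

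Of 31 other apoptosis genes tested, out of 32 listed, 6 rose (19.4%) and 5 fell (16.1%), with a median of 0.02. The shares over all genes tested were 8.61% and 8.56%. Bcl2l2, which encodes the guardian BCL-W, was at 891, 960 and 908 and at 1208, 1378 and 1313, and rose by 0.50 (SE 0.07), and 594 of its exon bases are shared with Gm20521 on the same strand. Casp12, a caspase of the inflammatory group, was at 94, 73 and 95 and at 166, 223 and 168, and rose by 1.08 (SE 0.17). Casp1, the inflammatory caspase of macrophages, was at 5, 10 and 7 and at 15, 25 and 17, near the lowest values tested, in hearts where macrophage markers were also higher. Casp6 rose by 0.28 (SE 0.08). Casp1 and Casp6 did not pass without control replicate 1 or 3 or knockout replicate 2 or 3, and Casp6 also not without control replicate 2, with adjusted p = 0.0732 to 0.167. Without single hearts the count that rose was 2 or 3 for control replicates 1, 2 and 3 and knockout replicates 2 and 3.

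The apoptosis genes that fell were of several kinds. Birc5, which encodes survivin, an inhibitor of apoptosis that also serves mitosis, was at 1930, 1976 and 2012 and at 1374, 1251 and 1331, and fell by 0.58 (SE 0.06). Bok, a BCL2 family effector, was at 396, 390 and 433 and at 297, 228 and 230. Aifm1, a mitochondrial flavoprotein, fell by 0.42 (SE 0.07) and Htra2, a mitochondrial protease that can counter XIAP, by 0.47 (SE 0.08). Of the 2946 exon bases of Htra2, 1288 overlap Aup1 and Loxl3 on the opposite strand, so its fall is less certain. The fifth gene that fell, Casp2, is named outside the rule for this list, with its values known. The same holds for Bmf and Bnip3l, the remaining genes of this list that rose. Their log2 changes were 0.32 and 0.23 (limma adjusted p = 0.0419 and 0.0461).

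Of 22 p53 regulators tested, out of 24 found, 0 rose and 2 fell (9.09%, near the 8.56% of all genes) in limma, with the same counts in limma-voom, against 5 at an unadjusted p under 0.05, with a median of -0.09. Chek1, the checkpoint kinase of replication stress, measured 551, 457 and 544 in the control hearts, and 365, 338 and 336 after the knockout, and fell by 0.57 (SE 0.10, limma adjusted p = 0.00419). Huwe1, a ubiquitin ligase that acts on p53 and MCL1, was at 6510, 6054 and 5723 and at 5236, 5169 and 5133 (limma adjusted p = 0.0352). With equal totals or quantile normalization Huwe1 did not pass (adjusted p = 0.069 and 0.0577), nor without control replicate 1 or 2 or any 1 of the knockouts (0.0647 to 0.126). Cdkn2a, whose ARF product blocks MDM2, was at 2, 0 and 0 and at 1, 0 and 1, too low to test.

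The calls differed in how far they rested on single hearts and settings. Bcl2l11, Ddit4, Trp53inp1, Zmat3, Phlda3 and Bcl2 passed under 14 of 15 alternatives, all except the test against a fold change of 1.2, and Eda2r under all 15. Bcl2l1 passed under 13, Gadd45g under 9, Gadd45b under 8 and Mdm2 under 7. Bax, Mcl1, Plk2 and Apaf1, which missed the threshold, passed under 4, 4, 2 and 2.

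**Figure D4:**
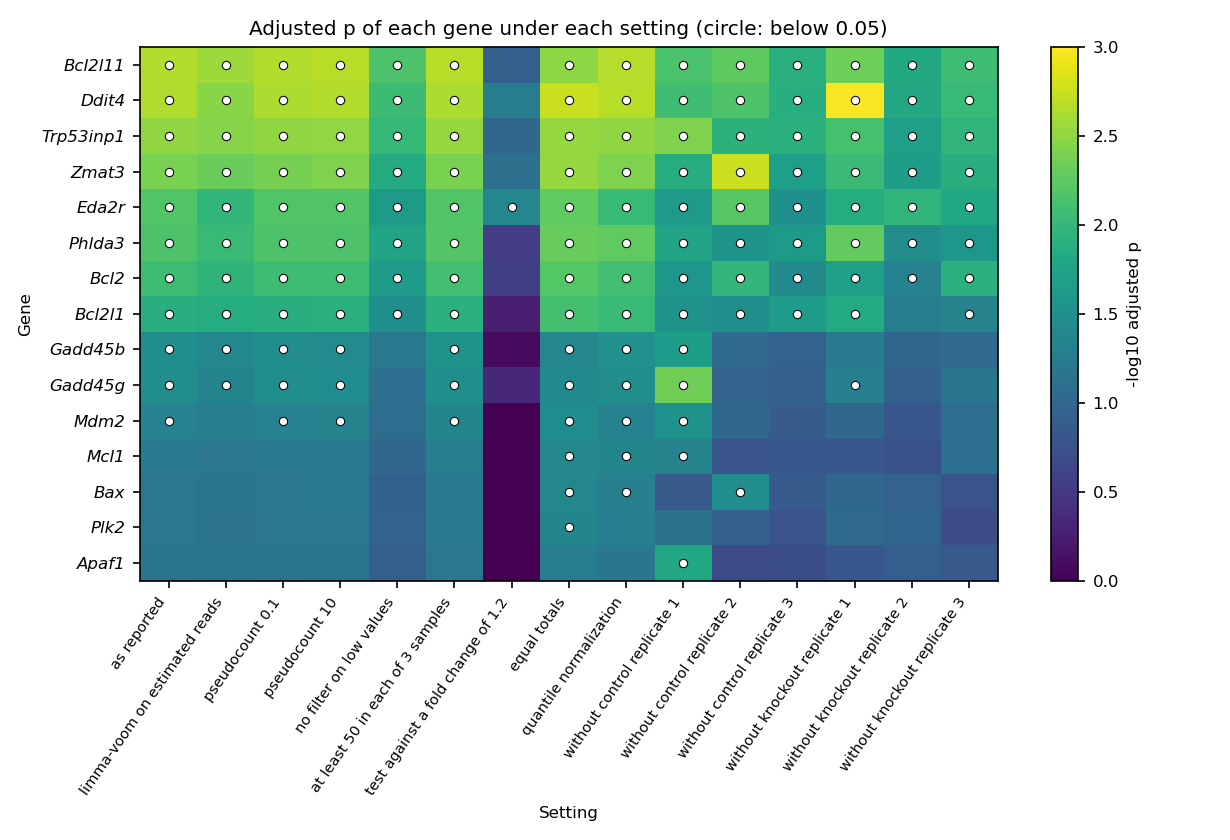
Adjusted p, as -log10 (colour), of the 15 genes that passed the threshold of 0.05 under at least 1 setting (rows). Columns hold the reported setting and its alternatives except the replicate block, and circles mark values below the threshold. The upper 8 genes pass in nearly every column, while Gadd45b, Gadd45g and Mdm2 lose the call when most single hearts are left out.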

How the data were processed

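The authors deposited 1 table of whole numbers per gene, whose unit is taken here as a score. The values show that these are reads scaled by sample and then rounded, and the header names no unit. Trimmomatic, featureCounts 1.5.0, STAR 2.4.2a, DESeq and DESeq2 are named, with build mm10, per the submitters' processing notes. Their roles, and whether counting used strand, are not given in the sources used here. The value of 1 read, fitted to the spacing of values up to 150, was 0.6921 to 1.4228 (largest error on simulated data 0.00014). Rounding prevents exact recovery of reads, and the count test planned for whole counts was therefore not run. limma 3.58.1 (R 4.3.3) was run with a variance trend on log2(value + 1), keeping genes that averaged at least 10, with group as the only term. Such changes understate low genes. On simulated data for this comparison, over 15538 genes, 39.8% of 1.5-fold and 85.7% of 2-fold changes were recovered, with 11 false calls. How far simulated samples differ was an assumption. The 36 genes and all lists were chosen with earlier results of these data known. Every member was described. From each further list up to 4 genes past the threshold per direction, by p, were named. Cdkn1a, Rbpms, Rbpms2, Casp2, Bmf and Bnip3l were named besides. Coordinates and exon lengths came from GENCODE M21 and promoters from RefSeq. No pair of replicates agreed within sampling noise. Alternatives were pseudocounts of 0.1 and 10, limma-voom on the estimated reads, no filter, at least 50 in each of 3 samples, equal totals, a test against a fold change of 1.2, a replicate block, quantile normalization and leaving out each heart. Tables and plots used matplotlib 3.10.9, numpy 2.4.6, pandas 2.3.3 and Python 3.11.15.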

Additional observations from a re-analysis of the deposited data

How the results depend on the processing

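The replicate numbers did not pair the hearts: the deviations of same-numbered hearts from their group means correlated at -0.041, -0.372 and 0.049. With the replicate block 12 members rose and 3 fell, Bax, Mcl1, Plk2 and Apaf1 joining those that rose, and 4 other p53 targets fell. Over all genes tested, more genes were also called with this block than in the reported setting, in both directions. The added calls were therefore not confined to these lists. Against a fold change of 1.2, 211 of all genes rose and 207 fell, 1 and 0 members, 3 and 0 other p53 targets, 1 and 1 other apoptosis genes, and 0 p53 regulators fell. With no filter 846 of all genes rose, 1 member fell, 2 other apoptosis genes rose and 1 p53 regulator fell, more genes being adjusted for. With limma-voom 3 other apoptosis genes rose; with equal totals or quantile normalization 1 p53 regulator fell. The causes of these differences were not tested. Leaving out each heart in turn, 614 to 1237 of all genes rose and 691 to 1225 fell, 6 to 10 members rose and 1 to 3 fell, and the median of the members was 0.11 to 0.20. Then 5 to 9 other p53 targets rose and 2 to 3 fell, 2 to 6 other apoptosis genes rose and 5 to 6 fell, and 1 to 2 p53 regulators fell. Changes of sign occurred only in members that passed in no fit: with quantile normalization Sesn3 and Bbc3 were at -0.01 and Gadd45a at -0.07, and without single hearts Mdm4 ran from -0.05 to 0.09, Ccng1 from -0.03 to 0.15, Sesn3 from -0.06 to 0.13, Gadd45a from -0.09 to 0.19, Aen from -0.04 to 0.13, Perp from -0.04 to 0.08, Tnfrsf10b from -0.17 to 0.32, Bak1 from -0.02 to 0.23, Bbc3 from -0.02 to 0.10, Bid from -0.10 to 0.26 and Casp9 from -0.01 to 0.10. Values below about 100, as for Fas, Gadd45a, Bbc3, Bid, Pmaip1 and Sesn3, limit what these depths can show.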
